A study of Mus musculus with 8 samples.

Results

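The genes described here are 6 matrix metalloproteinases (Mmp2, Mmp3, Mmp7, Mmp9, Mmp12 and Mmp14) and 3 tissue inhibitors of metalloproteinases (Timp1, Timp2 and Timp3), chosen by name and not by their values from the 21434 genes of an RNA-seq table of mouse pancreas. The table covered 8 untreated mice of 18 weeks, 4 Bach2WT and 4 Bach2KO, all of the strain C57BL/6N-Bach2tm1b(EUCOMM)Wtsi/leg. Mice 1 and 2 of each genotype were females and mice 3 and 4 were males. The Bach2KO mice lacked a functional Bach2 gene in the whole body from conception on, so no cell type was targeted, and the study kept 2 breeding colonies without the labels telling which one a mouse came from. Each mouse gave 1 library of the whole tissue, and the mice are the replicates. Where a transcript differed between such libraries, a change in the number of cells that make it and a change in its level per cell cannot be told apart.

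Matrix metalloproteinases are zinc-dependent endopeptidases that cleave collagens, elastin, basement membrane and many cell-surface proteins. They are made as inactive precursors and are switched on by other proteases, and TIMP proteins block the active site of the mature enzymes. In the pancreas, stellate cells, macrophages, duct cells and infiltrating leukocytes are known sources of these genes, and the balance of enzymes and inhibitors is studied in pancreatitis and fibrosis. Bach2 is a transcriptional repressor that binds, with small Maf proteins, elements that contain or resemble the AP-1 motif.

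The libraries held 72299745 to 172029360 counts on genes, and the members' counts ranged from 0 to 2081 in a library. Acinar markers summed to 283810 to 340579 FPKM in Bach2KO and 297266 to 412318 FPKM in Bach2WT (the authors' values per kilobase of gene, scaled for library size), so the labelled tissue was borne out by its own markers, and islet markers to 147 to 1888 FPKM over all libraries. Of 36 digestive enzyme genes, 11 were lower and 2 were higher in Bach2KO at an unadjusted p under 0.05 in edgeR and none was called after adjustment. The part of acinar RNA in the members' values was not tested beyond leaving these genes out of the library sizes. There the 6 log2 fold changes kept their direction, which was fixed for Mmp7, at 0 counts in all Bach2WT mice. Bach2KO mouse 3 stood apart from the other 7 libraries on the first principal component, which held 23.3% of the variance, and values without this mouse are given below where it mattered. Bach2 itself had 16, 3, 12 and 14 counts in Bach2KO mice 1 to 4 and 4, 4, 31 and 6 counts in Bach2WT mice 1 to 4, too few to pass the filter on low counts. These are counts over the whole gene, which do not resolve the deleted part and therefore do not check the genotype.

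Of the 9 genes, 6 passed the filter on low counts and were tested, and none differed between the genotypes at an adjusted p under 0.05 in edgeR's quasi-likelihood test with Benjamini-Hochberg adjustment over 12820 genes. With the same rule 0.0078% of all genes tested were called higher in Bach2KO, which is 1 gene, the ribonuclease gene Rnase2a, named here after its values were seen, and none was called lower. At an unadjusted p under 0.05, 1 member was higher in Bach2KO and none was lower, beside 3.9% and 3.56% of all genes tested. DESeq2, run on all 21434 genes without this filter, called 1 of the 9 members, the same gene, Mmp7. Over all genes it called 57 higher and 23 lower in Bach2KO. In 1 member, again Mmp7, every Bach2KO value lay above every Bach2WT value, which held for 2.57% of all genes tested, and none lay wholly below, beside 1.92% of all genes. The fitted log2 fold change was above 0 in all 6 members tested, with a median of 0.54, while it was above 0 in 54.7% of all genes tested, with a median of 0.05. Mmp7 passed the filter only through the Bach2KO mice, with 0 counts in every Bach2WT mouse, so the direction of its fold change was fixed. The members that did not pass are not part of the edgeR counts.

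**Figure D1:**
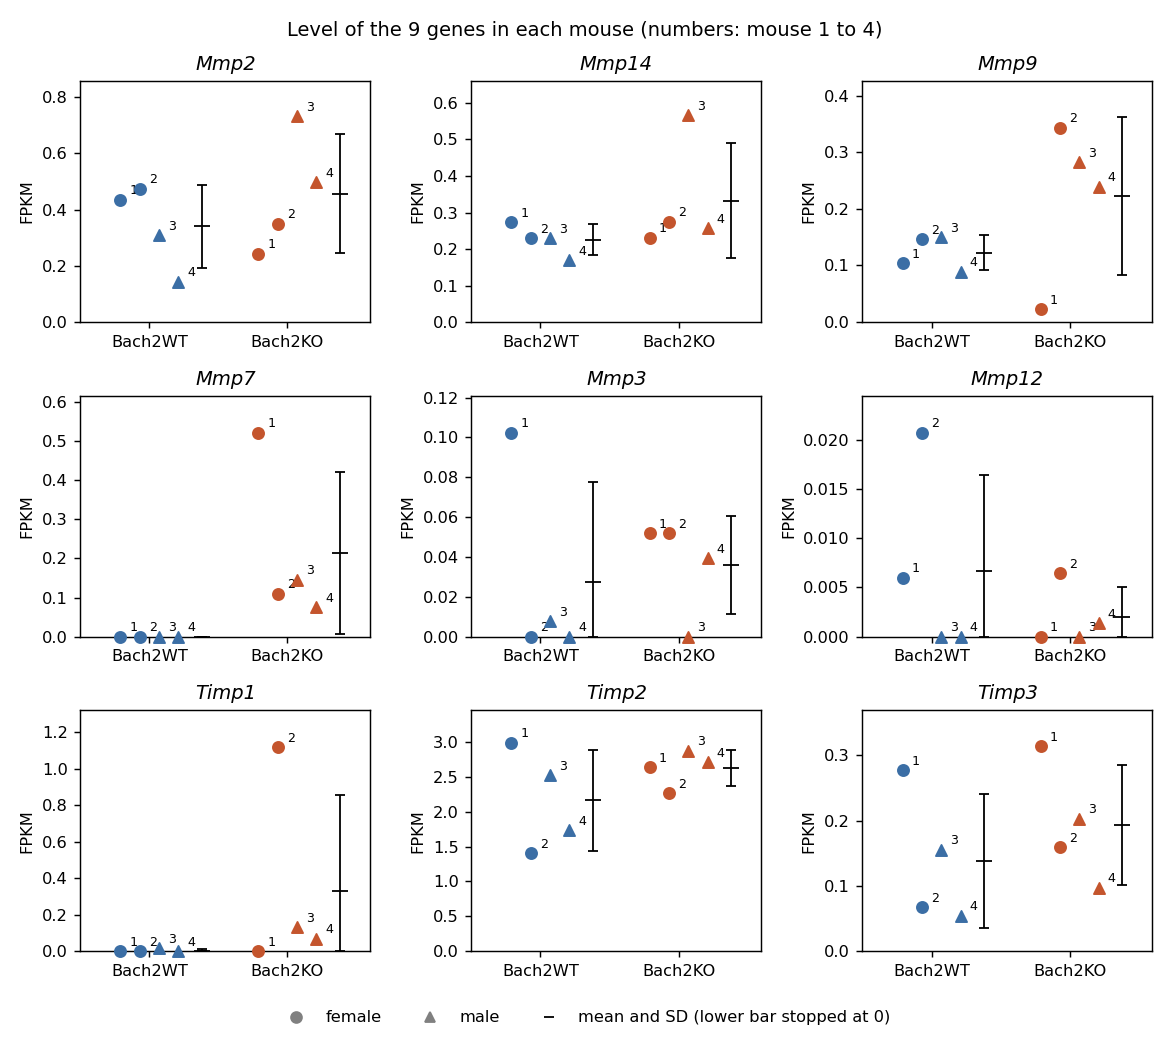
FPKM (vertical axis, linear, from 0) of the 9 genes in each mouse, by genotype; circles are females, triangles are males, numbers are mice, and the dash with bars is the mean and SD of 4 mice. Mmp7 is the gene with all 4 Bach2KO mice (0.0758 to 0.521 FPKM) above all 4 Bach2WT mice (0), and in the 8 other panels the genotypes overlap.

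Mmp7 encodes matrilysin, the smallest metalloproteinase, which is secreted by glandular and ductal epithelia and lacks the hemopexin domain of most relatives. The gene (ENSMUSG00000018623) is at chromosome 9, 7692091 to 7699586, plus strand, in the deposited coordinates (mm39). It had 95, 10, 12 and 16 counts in Bach2KO mice 1 to 4 and 0 counts in each of the 4 Bach2WT mice. Transcripts were thus detected in every Bach2KO mouse and in no Bach2WT mouse, with mouse 1 well above the other 3. In FPKM the Bach2KO values were 0.521, 0.109, 0.146 and 0.0758 (mean 0.213 ± 0.207 SD, n = 4), and 3 counts, the most that a count of 0 allows, would have been 0.0194 to 0.0401 FPKM in the Bach2WT libraries. Set against this floor in each Bach2WT library, the mean normalized level in Bach2KO was at least 7.89-fold higher, and at least 4.02-fold higher without mouse 1. Even values made up 73.9% to 76.6% of the counts from 2 to 50 in each library, as they would if both mates of a read pair had been counted, and with a floor of 6 counts the bound was 3.95-fold with all mice and 2.01-fold without mouse 1.

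The difference in Mmp7 gave the smallest p that 4 mice against 4 allow in a two-sided exact permutation test (p = 0.0286, 9 members tested, not adjusted). This p follows from the groups lying apart and adds nothing to that. edgeR, whose filter Mmp7 passed only through the Bach2KO mice, gave an unadjusted p of 0.000477 and an adjusted p of 0.340. The adjusted p was 0.00136 with DESeq2 and 0.0256 in edgeR without the filter, and it ranged from 0.00136 to 0.674 over the 13 alternatives in which the gene was tested. Without mouse 1, Mmp7 no longer passed the filter and had no edgeR test. That the remaining 3 Bach2KO mice lay above all Bach2WT mice follows from all 4 doing so and adds nothing. Duct cell markers, whose cells are a known source of Mmp7, summed to 37.3, 47.9, 59.2 and 53.9 FPKM in Bach2KO mice 1 to 4 and to 48.0 to 67.2 FPKM in Bach2WT, and Muc1 made up 67.1% to 84.0% of each sum. Without Muc1, left out after the values were seen, the sums were 11.4, 15.8, 13.4 and 14.6 FPKM in Bach2KO and 12.9, 8.70, 13.6 and 11.9 FPKM in Bach2WT, so mouse 1, with the highest Mmp7, had the lowest sum of the Bach2KO mice either way. Of the 7 duct markers tested, Krt7 and Epcam were higher at an unadjusted p under 0.05 and none was called after adjustment, and the part of duct cells in the Mmp7 values was not tested.

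The sequence before the start of Mmp7 is shown because Bach2 and AP-1 proteins share their recognition letters. It is set beside those of Mmp3 and Mmp12, which lie in the same stretch of chromosome 9 and had unlike values. Mmp8, which is not a member, lies between Mmp3 and Mmp7. RefSeq promoters (GRCm38.p6, both strands searched) were at hand for 7 of the 9 members with 9 entries. Each line gives 250 bases upstream of a start, plus strand, 5′ to 3′, and capitals mark the AP-1 motif TGAGTCA and the TATA box TATAAA. The positions are chr9:7691840-7692089 for Mmp7, chr9:7445572-7445821 for Mmp3 and chr9:7347124-7347373 for the second start of Mmp12.
Mmp7: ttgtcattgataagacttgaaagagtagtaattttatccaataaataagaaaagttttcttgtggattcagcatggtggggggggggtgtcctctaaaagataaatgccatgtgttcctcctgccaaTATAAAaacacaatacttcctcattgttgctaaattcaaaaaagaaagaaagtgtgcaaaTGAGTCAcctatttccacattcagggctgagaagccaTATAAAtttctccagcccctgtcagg
Mmp3: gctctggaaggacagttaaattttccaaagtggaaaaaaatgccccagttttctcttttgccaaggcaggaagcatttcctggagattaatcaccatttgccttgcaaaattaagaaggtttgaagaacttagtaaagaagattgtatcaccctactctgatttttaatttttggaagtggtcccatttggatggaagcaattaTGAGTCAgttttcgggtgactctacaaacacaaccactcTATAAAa
Mmp12: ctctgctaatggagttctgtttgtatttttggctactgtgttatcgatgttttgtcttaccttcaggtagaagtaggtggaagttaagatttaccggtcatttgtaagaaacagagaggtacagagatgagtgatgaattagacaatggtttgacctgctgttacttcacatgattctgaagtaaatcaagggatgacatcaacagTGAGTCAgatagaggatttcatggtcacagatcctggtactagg
The AP-1 motif began 63 bases before the start of Mmp7, 46 bases before that of Mmp3 and 44 bases before that of Mmp12, and TATAAA stood 26 and 123 bases before the start of Mmp7 and 7 bases before that of Mmp3, each counted from its first base. All matches were on the plus strand. Of 32851 promoters of the same length, 4.46% held TGAGTCA and 12.4% held TATAAA. The longer Maf recognition element, TGC followed directly by TGAGTCA, was in 0.134% of all promoters and in none of the members. The entries of Mmp14, Timp1, Timp2 and Timp3, the second entry of Mmp7 and the first of Mmp12 held none of these letters. These are matches of letters and say nothing of what binds there.

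**Figure D2:**
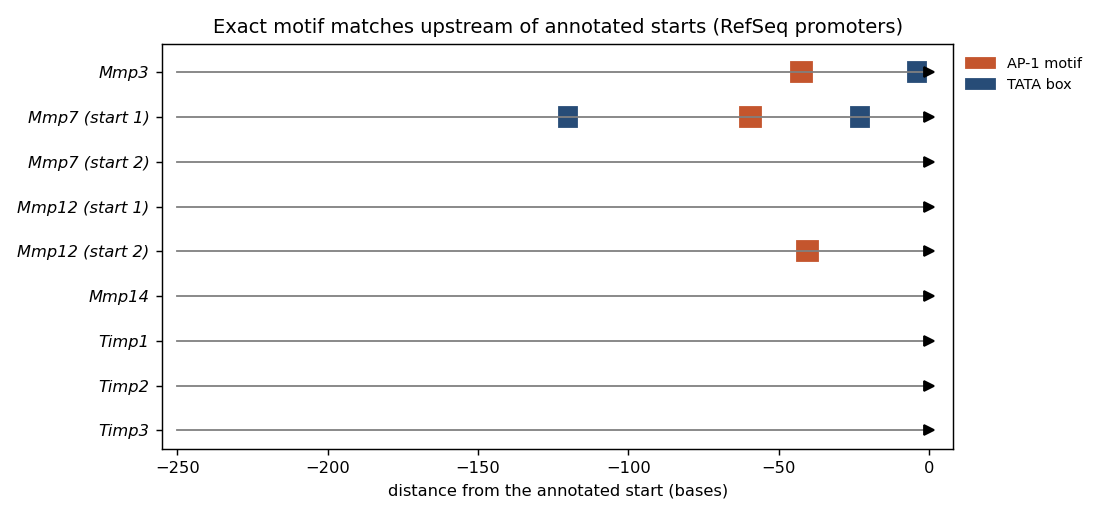
Position of exact motif matches in bases before the annotated start (arrowheads at 0, horizontal axis) for the 9 promoter entries of 7 members. AP-1 matches lie 63, 46 and 44 bases before the starts of Mmp7, Mmp3 and the second start of Mmp12, and the other 6 entries are empty.

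Mmp3 (stromelysin-1, ENSMUSG00000043613, chromosome 9, 7445822 to 7455975, plus strand) degrades proteoglycans and activates other proenzymes, and fibroblasts are its main source. It had 16, 8, 0 and 14 counts in Bach2KO mice 1 to 4 and 17, 0, 2 and 0 counts in Bach2WT mice 1 to 4. The groups overlapped, with the highest FPKM, 0.102, in Bach2WT mouse 1 and counts of 0 in both genotypes. The gene did not pass the filter, and the exact permutation test gave p = 0.914 for means of 0.0358 ± 0.0246 and 0.0275 ± 0.0501 FPKM (SD, n = 4). With certain mice left out it passed, with a log2 fold change of 3.43 without Bach2WT mouse 1 (edgeR adjusted p = 0.522) and 0.05 without Bach2WT mouse 4 (edgeR adjusted p = 0.998).

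Mmp12 (macrophage elastase, ENSMUSG00000049723, chromosome 9, 7344381 to 7369499, plus strand) had 0, 4, 0 and 2 counts in Bach2KO mice 1 to 4 and 4, 20, 0 and 0 counts in Bach2WT mice 1 to 4. With 0 counts in mice of both genotypes the groups overlapped, and the exact permutation test gave p = 0.714. Macrophage markers summed to 15.5 to 25.2 FPKM in Bach2KO and 12.2 to 23.6 FPKM in Bach2WT, and C1qa alone made up 21.5% to 73.0% of each sum. The part of macrophages in the Mmp12 values was not tested. Of the 3 members with an AP-1 match, Mmp7 had groups apart, and Mmp3 and Mmp12 had overlapping groups.

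Mmp14, the membrane-bound MT1-MMP, cleaves collagen at the cell surface and activates the Mmp2 proenzyme in a complex that contains Timp2. It lies at chromosome 14, 54669069 to 54682821, plus strand (ENSMUSG00000000957). Its FPKM was 0.231, 0.275, 0.567 and 0.257 in Bach2KO mice 1 to 4 and 0.273, 0.230, 0.229 and 0.170 in Bach2WT mice 1 to 4. Bach2KO mouse 3 was far above all others, and the remaining 7 mice formed 1 range. The log2 fold change was 0.57 (SE 0.31, edgeR adjusted p = 0.742), and it was 0.18 without Bach2KO mouse 3. Without Bach2WT mouse 1 the groups did not overlap, with a log2 fold change of 0.67 and an edgeR adjusted p of 0.552. No share of all genes with groups apart was computed for 4 mice against 3. A long noncoding RNA gene, ENSMUSG00000120849, lies within Mmp14 on the same strand, but it had at most 6 counts in a library.

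Mmp2, the gelatinase of fibroblasts and stellate cells, lies at chromosome 8, 93553919 to 93580048, plus strand (ENSMUSG00000031740). Its FPKM was 0.243, 0.350, 0.732 and 0.497 in Bach2KO mice 1 to 4 and 0.435, 0.474, 0.309 and 0.144 in Bach2WT mice 1 to 4. The genotypes overlapped, and mouse 3 was again the highest of the Bach2KO mice. The log2 fold change of 0.42 (SE 0.40, edgeR adjusted p = 0.882) was 0.10 without Bach2KO mouse 3 and 0.18 without Bach2WT mouse 4, the lowest one.

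The markers of fibroblasts and stellate cells, none of whose 10 genes had an unadjusted p under 0.05, summed to 9.08, 10.3, 13.5 and 9.84 FPKM in Bach2KO mice 1 to 4 and to 13.0, 9.54, 7.71 and 6.07 FPKM in Bach2WT mice 1 to 4. Mouse 3 had the highest sum of the Bach2KO mice and Bach2WT mouse 4 the lowest sum of all, as for Mmp2 and Mmp14. Bach2WT mouse 1 came near Bach2KO mouse 3 in this sum, but not in Mmp2 (0.435 and 0.732 FPKM) or Mmp14 (0.273 and 0.567 FPKM). Endothelial markers ranged from 1.95 to 4.21 FPKM in Bach2KO, highest in mouse 3, and from 1.51 to 2.29 FPKM in Bach2WT. Of the 5 endothelial markers 4 had a log2 fold change above 0, and Cdh5, with groups that did not overlap, had 1.07 (unadjusted p = 0.00636, adjusted p = 0.531 in edgeR). The part of these cells in the Mmp2 and Mmp14 values was not tested.

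Mmp2 was the tested member with the smallest p for an interaction of sex and genotype. In females the mean level was 0.297 FPKM in Bach2KO and 0.454 FPKM in Bach2WT, and both knockout females lay below both wild-type females. In males it was 0.615 FPKM in Bach2KO and 0.227 FPKM in Bach2WT, and both knockout males lay above both wild-type males. The log2 fold change in males minus that in females was 2.02 (SE 0.63), with an unadjusted p of 0.00801 and an adjusted p of 0.794 in edgeR, and 2.04 with an adjusted p of 0.482 in DESeq2. Of all genes tested, 6.14% had an unadjusted p under 0.05 for this interaction and none an adjusted one. The same term was 1.01 for Mmp14 (edgeR adjusted p = 0.864), 0.58 for Mmp9, 0.21 for Timp2 and -0.01 for Timp3, with unadjusted edgeR p-values of 0.114 to 0.990, on 2 mice for each sex and genotype. It is not given for Mmp7, whose Bach2WT mice were all at 0 counts, nor for the members that did not pass the filter.

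Mmp9, the gelatinase of neutrophils and macrophages, lies at chromosome 2, 164782700 to 164797770, plus strand (ENSMUSG00000017737). It had 14, 104, 77 and 167 counts in Bach2KO mice 1 to 4 and 34, 69, 77 and 22 counts in Bach2WT mice 1 to 4. In FPKM these were 0.0232, 0.343, 0.283 and 0.239 in Bach2KO and 0.104, 0.146, 0.150 and 0.0887 in Bach2WT. Bach2KO mouse 1 was the lowest of all 8 mice and the other 3 Bach2KO mice were the highest, so that the groups overlapped through a single mouse. Mmp9 had a log2 fold change of 0.86 (SE 0.60, edgeR adjusted p = 0.805), and 0.56 without Bach2KO mouse 2, the highest one. Without Bach2KO mouse 1 it was 1.24 (SE 0.38), with an unadjusted p of 0.00646 and an adjusted p of 0.622 in edgeR. The groups then did not overlap, since this mouse alone had made them overlap. The share of all genes with groups apart was not computed for 3 mice against 4.

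Mouse 1 therefore had the highest Mmp7 and the lowest Mmp9 of the Bach2KO mice. Macrophage markers summed to 15.5 FPKM in this mouse and to 20.7, 25.2 and 20.3 FPKM in Bach2KO mice 2 to 4, and to 22.0, 23.6, 13.6 and 12.2 FPKM in Bach2WT mice 1 to 4. C1qa alone made up 21.5% to 73.0% of this sum with a log2 fold change of -0.64, and 7 of the 10 markers had one above 0, with Lyz2 (1.15) and C1qb (0.95) at an unadjusted edgeR p under 0.05. Without C1qa, left out after the values were seen, the sums were 10.0, 16.3, 16.4 and 13.6 FPKM in Bach2KO and 12.8, 6.36, 6.83 and 5.46 FPKM in Bach2WT. Markers of alternatively activated macrophages, led by Retnla, summed to 5.52 to 14.9 FPKM in Bach2KO and 0.673 to 2.61 FPKM in Bach2WT, and 2 of the 5 tested were higher at an unadjusted p under 0.05. Neutrophil markers, 1 of whose 7 genes in the table passed the filter, summed to 0.213, 0.965, 1.07 and 0.110 FPKM in Bach2KO mice 1 to 4 and 0 to 0.135 FPKM in Bach2WT. S100a8 (4, 12, 40 and 2 counts) and S100a9 (12, 29, 9 and 6 counts) had counts in all 4 Bach2KO mice and none in Bach2WT. Elane had 6 counts in Bach2WT mouse 1 and none in Bach2KO, and Csf3r, the tested marker, had overlapping groups. Cxcr2, Mpo and Ngp had 2, 6 and 6 counts, each in a single Bach2KO mouse. The part of these cells in the Mmp9 values was not tested.

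Timp1, the inducible inhibitor that rises in inflamed and fibrotic tissue in many organs, lies at chromosome X, 20736405 to 20740974, plus strand (ENSMUSG00000001131). It had 0, 85, 9 and 12 counts in Bach2KO mice 1 to 4 and 0, 0, 2 and 0 counts in Bach2WT mice 1 to 4. The groups overlapped through Bach2KO mouse 1 with 0 counts, and mouse 2 held most of the signal, with 1.12 FPKM beside 0, 0.132 and 0.0684 in the other Bach2KO mice. Over all mice 106 counts stood against 2, a ratio of 44.8 after normalization (95% counting interval 12.1 to 375), and without mouse 2 the ratio was 10.6 (2.59 to 93.2), intervals that cover counting error only and not the spread between mice. With counts divided by 2, as for 1 count per read pair, the intervals were 7.86 to 1838 and, without mouse 2, 1.61 to 478. The exact permutation test gave p = 0.143. Timp1 did not pass the filter, and without the filter its edgeR adjusted p was 0.0994, with 0.351 in DESeq2. Timp1 lies inside Syn1 on the opposite strand, which had 25, 16, 54 and 7 counts in Bach2KO and 0, 18, 26 and 32 in Bach2WT, and whether counting used the strand is not given in the sources used here.

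Timp2, the constitutive inhibitor that also takes part in the activation of Mmp2, lies at chromosome 11, 118191895 to 118246566, minus strand (ENSMUSG00000017466). Its FPKM was 2.64, 2.26, 2.87 and 2.70 in Bach2KO mice 1 to 4 and 2.99, 1.41, 2.52 and 1.74 in Bach2WT mice 1 to 4. The Bach2KO mice lay close together inside the range of the Bach2WT mice. The coefficient of variation of TMM-scaled CPM, not FPKM, was 9.34% in Bach2KO and 33.8% in Bach2WT, where the median of all genes tested was 31.2% in both. For Timp2 the log2 fold change was 0.30 (SE 0.22, edgeR adjusted p = 0.820), and it was 0.14 without Bach2WT mouse 2 and 0.50 without Bach2WT mouse 1.

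Timp3, the inhibitor that is bound to the extracellular matrix and also blocks several adamalysins, lies at chromosome 10, 86136236 to 86185370, plus strand (ENSMUSG00000020044), inside Syn3 on the opposite strand, which had at most 14 counts in a library. Its FPKM was 0.314, 0.159, 0.203 and 0.0970 in Bach2KO mice 1 to 4 and 0.277, 0.0672, 0.155 and 0.0543 in Bach2WT mice 1 to 4. The groups overlapped, and mouse 1 was the highest in both genotypes. The log2 fold change was 0.51 (SE 0.49, edgeR adjusted p = 0.884), 0.15 without Bach2KO mouse 1, 0.25 without Bach2WT mouse 4, 0.27 without Bach2WT mouse 2 and 1.09 without Bach2WT mouse 1.

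**Figure D3:**
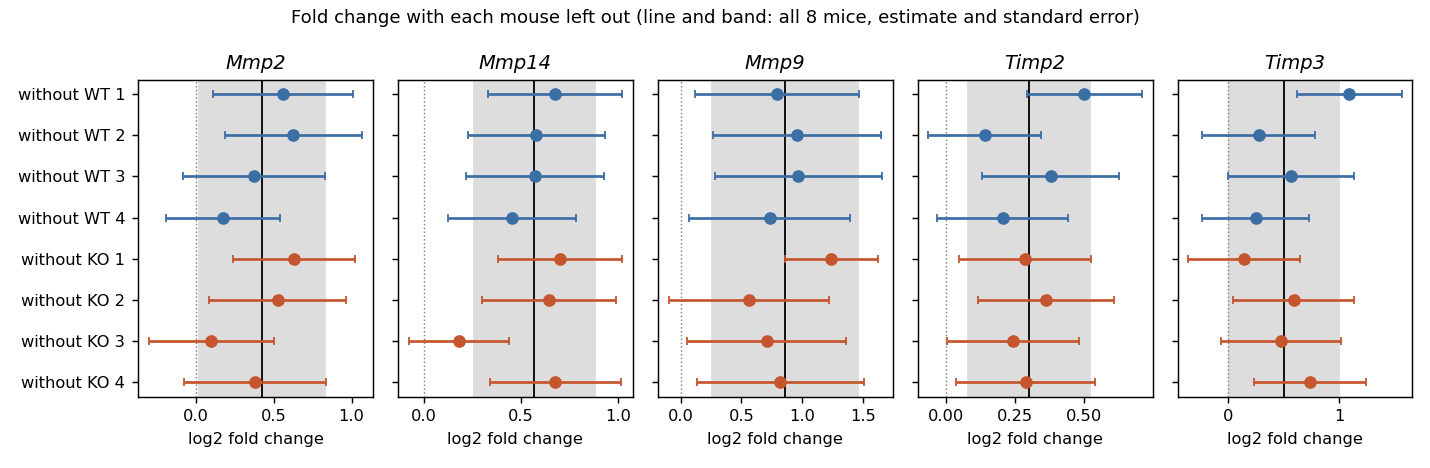
Log2 fold change (horizontal axis, Bach2KO against Bach2WT) of 5 members with each mouse left out in turn; points are edgeR estimates with standard errors, and the line and band are the estimate and standard error with all 8 mice. Mmp2 and Mmp14 are closest to 0 without Bach2KO mouse 3 (0.10 and 0.18), and Mmp9 is farthest from 0 without Bach2KO mouse 1 (1.24).

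On the FPKM scale, which allows levels to be compared between genes, Timp2 was the highest member in both genotypes. Its mean was 6.36-fold that of the next gene, Mmp2, in Bach2WT and 5.75-fold in Bach2KO, and the ranges of the 2 genes did not overlap. In Bach2WT the order below it was Mmp2, Mmp14, Timp3, Mmp9, Mmp3, Mmp12, Timp1 and Mmp7, and in Bach2KO it was Mmp2, Mmp14, Timp1, Mmp9, Mmp7, Timp3, Mmp3 and Mmp12. All neighbours below Timp2 overlapped in their ranges, except Timp3 above Mmp3 in Bach2KO. Timp1 and Mmp7 thus stood at the bottom of the order in Bach2WT and in its middle in Bach2KO, with Timp1 carried there by mouse 2. Mmp7 lay above Timp3 in only 1 of the 4 Bach2KO mice, mouse 1.

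The 6 metalloproteinases summed to 1.07, 1.14, 1.73 and 1.11 FPKM in Bach2KO mice 1 to 4 and to 0.920, 0.871, 0.696 and 0.403 FPKM in Bach2WT mice 1 to 4. All 4 Bach2KO sums lay above all 4 Bach2WT sums, which is given as a description without a test. This separation rested on Mmp7, which was at 0 counts in every Bach2WT mouse. Without Mmp7 the sum of Bach2KO mouse 1 would lie within the range of the Bach2WT sums. Different genes filled the sum in different mice: Mmp7 made up 48.7% of it in Bach2KO mouse 1 and 9.63%, 8.45% and 6.84% in mice 2 to 4, while Mmp2 and Mmp14 made up 76.9% to 80.8% of it in Bach2WT and 44.3% to 75.2% in Bach2KO. The 3 inhibitors summed to 2.87 to 3.54 FPKM in Bach2KO and 1.47 to 3.27 FPKM in Bach2WT, which overlap. Timp2 made up 91.5% to 97.0% of the inhibitors in Bach2WT and 63.9% to 94.2% in Bach2KO, lowest in mouse 2, the mouse with the highest Timp1. Inhibitor transcripts stood at 2.58 ± 0.530 per metalloproteinase transcript in Bach2KO and 3.39 ± 1.19 in Bach2WT (ratio of summed FPKM, mean ± SD, n = 4), a difference smaller than the SD of the Bach2WT mice. The ratio of Timp2 to Mmp14 was 8.81 ± 2.83 in Bach2KO and 9.57 ± 2.33 in Bach2WT.

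**Figure D4:**
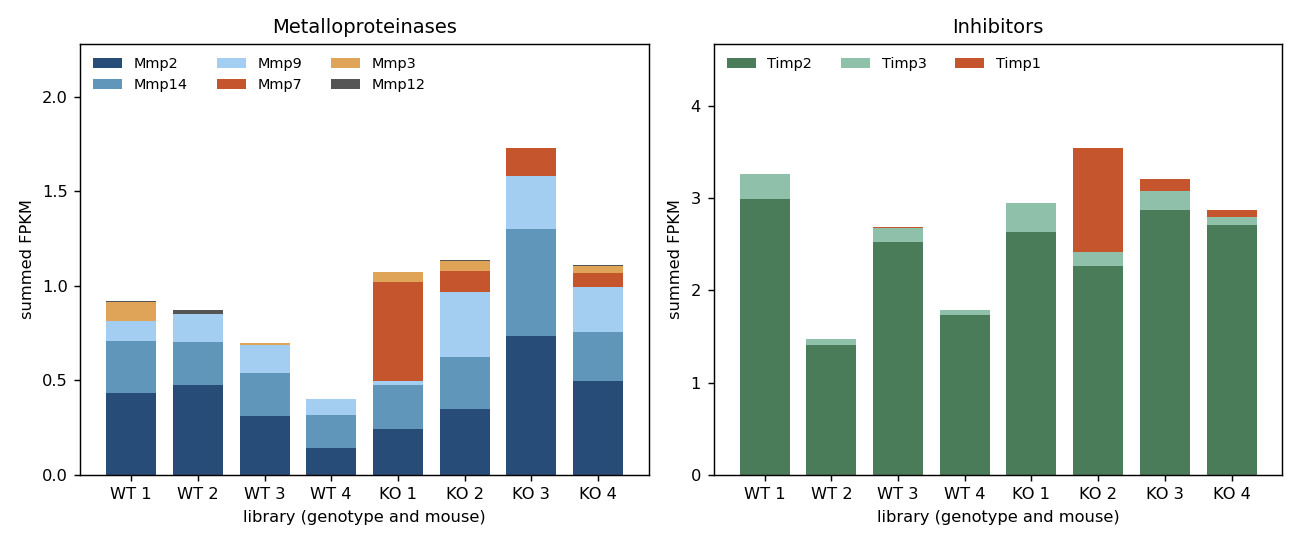
Summed FPKM (vertical axis, from 0) of the 6 metalloproteinases (left) and the 3 inhibitors (right) in each library, stacked by gene. The metalloproteinase sums are 1.07 to 1.73 FPKM in Bach2KO and 0.403 to 0.920 FPKM in Bach2WT, with Mmp7 a large share in Bach2KO mouse 1, and Timp2 fills most of every inhibitor sum.

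Other genes of the system were taken from 4 lists of 53 genes, of which 44 were in the table and 30 were tested. None differed at an adjusted p under 0.05 in edgeR. At an unadjusted p under 0.05, 3 were higher and 1 was lower in Bach2KO, beside 3.9% and 3.56% of all genes tested. A log2 fold change above 0 was found in 19 of the 30, beside 54.7% of all genes tested. Among 11 other metalloproteinases, 5 were tested and none had an unadjusted p under 0.05. The highest of them, the membrane-bound Mmp15, had 1.57 ± 0.210 FPKM in Bach2KO and 1.40 ± 0.506 FPKM in Bach2WT, above every member except Timp2, with a log2 fold change of 0.19 (SE 0.22, edgeR adjusted p = 0.923). The value was 0.47 (SE 0.17, edgeR adjusted p = 0.882) without Bach2WT mouse 2, 0.08 without Bach2KO mouse 3, 0.07 without Bach2WT mouse 4, 0.12 without Bach2WT mouse 1 and 0.13 without Bach2WT mouse 3.

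Of 7 genes in the list of other inhibitors, 2 were tested, and Spock2, a testican proteoglycan of the matrix, had the smallest p of all 30 genes. Its place in this list is no evidence that its product inhibits metalloproteinases, which was not tested. Its FPKM was 1.10, 0.277, 0.669 and 0.415 in Bach2KO mice 1 to 4 and 0.278, 0.157, 0.150 and 0.312 in Bach2WT mice 1 to 4. The groups overlapped, with mouse 1 the highest. The log2 fold change was 1.50 (SE 0.41), with an unadjusted p of 0.00261 and an adjusted p of 0.448 in edgeR, and the adjusted p was 0.0280 without the filter and 0.0502 in DESeq2.

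Of 12 genes in the list of activators and partners 11 were tested, with 1 higher and 1 lower at an unadjusted p under 0.05. Lcn2, the lipocalin that binds and stabilizes Mmp9, had 0.333, 0.508, 0.396 and 0.0347 FPKM in Bach2KO mice 1 to 4 and 0.0827, 0.0400, 0.0947 and 0.0272 FPKM in Bach2WT mice 1 to 4. Bach2KO mice 1 to 3 lay above all Bach2WT mice and mouse 4 among them, with a log2 fold change of 2.37 (SE 0.70, edgeR adjusted p = 0.513). Bsg, which encodes the metalloproteinase inducer basigin (CD147), was the most abundant gene of the lists. Its FPKM was 35.1, 49.9, 64.2 and 65.1 in Bach2KO mice 1 to 4 and 61.4, 110.4, 77.9 and 89.8 in Bach2WT mice 1 to 4, with a log2 fold change of -0.64 (SE 0.22, edgeR adjusted p = 0.552).

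Of the adamalysins, relatives with a metalloproteinase domain, 14 were in the table and 12 were tested. Adam8, a sheddase of leukocytes, had 0.109, 0.171, 0.0280 and 0.0360 FPKM in Bach2KO mice 1 to 4 and 0.00468, 0.0162, 0.00893 and 0 FPKM in Bach2WT mice 1 to 4. It was the 1 gene of the 30 whose groups did not overlap. Of all genes tested, 2.57% lay apart with Bach2KO higher and 1.92% with Bach2KO lower. In Bach2KO the females lay above the males for Adam8, and its log2 fold change was 3.43 (SE 0.94, edgeR adjusted p = 0.456, DESeq2 adjusted p = 0.0232). Adam10, the highest of this list, had 0.609 ± 0.234 FPKM in Bach2KO and 0.477 ± 0.0657 FPKM in Bach2WT, with a log2 fold change of 0.39 (SE 0.29, edgeR adjusted p = 0.822). Without Bach2KO mouse 3 it was 0.59 (edgeR adjusted p = 0.500), and it was 0.22 without Bach2KO mouse 1 and 0.25 without Bach2KO mouse 2.

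**Figure D5:**
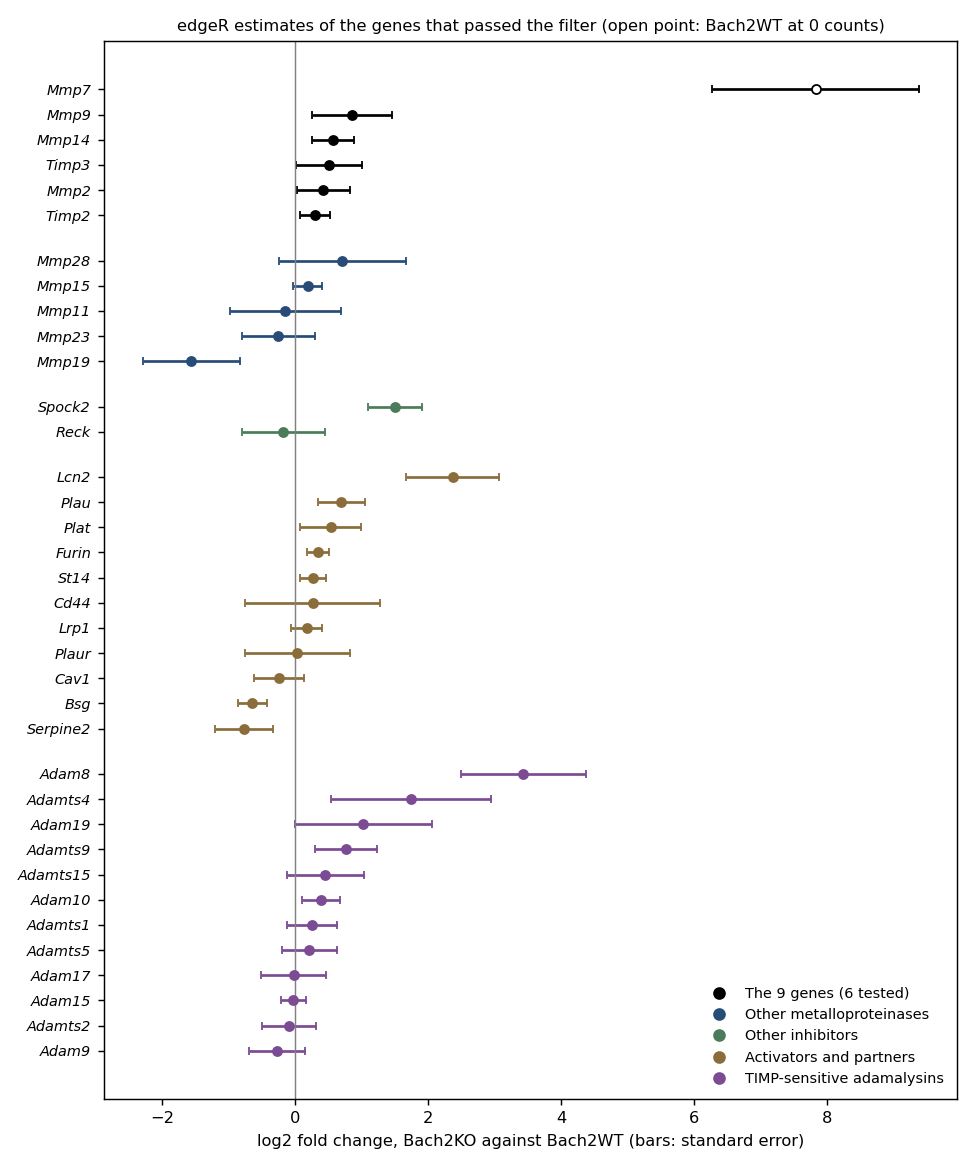
Log2 fold change (horizontal axis, Bach2KO against Bach2WT) with standard error for the 6 members and the 30 other genes of the system that passed the filter, grouped by list and sorted within it. Mmp7 (open point) was at 0 counts in all Bach2WT mice, so its fitted value is no measured fold, and most other genes lie within 1 of 0.

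The genes whose pattern over the 8 libraries was most like that of a member were sought for the 3 tested members with the widest range of log2 CPM (counts scaled by library size), by the root mean square difference of centred log2 CPM. For Mmp7, with a range of 5.16, these included Tdrp (0.65) and Kcnip3 (0.70), where the median over all genes tested was 1.94. Like Mmp7, both genes had their highest counts in Bach2KO mouse 1 and few counts in Bach2WT, with 378, 36, 21 and 24 counts of Kcnip3 in Bach2KO mice 1 to 4 and 4, 12, 9 and 4 in Bach2WT mice 1 to 4. For Mmp9 they were Ncf4 (0.33), which encodes a subunit of the phagocyte NADPH oxidase, Usp18 (0.41), an interferon-inducible protease for ISG15, and the predicted gene Gm14388 (0.49), beside a median of 1.19. For Timp3 they were Gmnn (0.22), the gene of the replication inhibitor geminin, Tmf1 (0.29) and Jcad (0.30), beside a median of 0.98. The nearest genes of 12820 are close by selection, and these differences are a description.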

How the data were processed

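Paired-end reads came from mRNA libraries of whole pancreas. The submitters' processing notes name fastp, HISAT2 2.2.1, featureCounts 2.0.6 and the build mm39, with options not given in the sources used here. The authors deposited 1 table with raw counts per gene, a size-factor-scaled signal (not used), FPKM made from that signal and gene length, and their own fold changes and p-values, which were not used. The deposited counts were compared with edgeR 4.0.16 (R 4.3.3, quasi-likelihood test, TMM, filterByExpr on genotype with a minimum count of 10, 4 mice against 4, no covariate), and p-values were adjusted by Benjamini-Hochberg over 12820 genes with a threshold of 0.05. The deposited FPKM values served to compare levels. The standard error is the log2 fold change divided by the square root of F. Single genes were also compared by a two-sided exact permutation test of TMM-scaled CPM over 70 assignments. The p-values measure the spread between these mice.

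Other settings tried were a fit with sex as covariate or a replicate block, DESeq2 1.42.0, no filter, at least 10 counts in every library, RLE factors, leaving digestive enzymes out of the library sizes, counts divided by 2, FPKM or log2(CPM + 0.1) in the permutation test, and each mouse left out. Marker sums without their most abundant gene, halved counts in the Timp1 ratio and a floor of 6 counts without Bach2KO mouse 1 were added after seeing the data. The scripts were tested on simulated counts with known changes. Log2 CPM used a prior count of 2. A count of 0 allows up to 3 counts, and floors and 95% intervals cover counting error only.

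All members were named, with other genes of the lists at an unadjusted p under 0.05, the highest gene of each list, and the 3 nearest patterns of 3 members, of which 1 gene is not reported here. The members and lists were chosen with earlier results of these data known.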

Additional observations from a re-analysis of the deposited data

Results flagged for a closer look

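Mmp2 was singled out because its interaction of sex and genotype had an unadjusted edgeR p under 0.05 (0.00801, with an adjusted p of 0.794). Both knockout females lay below both wild-type females and both knockout males above both wild-type males.

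In 5 of 17 groups of 4 mice, 1 mouse lay far from the other 3 in TMM-scaled CPM. Its gap to the nearest neighbour, as a share of the whole range, exceeded Dixon's 95% critical value, which chance gives in about 1 of 20 groups of continuous values. Mmp3 and Timp1 in Bach2WT hold several equal counts of 0 and are no such groups, so the number of groups cannot be read against chance. The gap was 0.926 of the range for Mmp3 in Bach2WT mouse 1, 0.850 for Mmp7 in Bach2KO mouse 1, 0.880 for Mmp14 in Bach2KO mouse 3 and 0.884 for Timp1 in Bach2KO mouse 2, each of them the highest of its group. For Timp1 in Bach2WT the gap was 1 of the range, since mouse 3 had 2 counts and the other 3 mice had 0.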

How the results depend on the processing

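The log2 fold changes of the 6 tested members kept their direction in all 93 alternative values. Of these, the 13 of Mmp7 could not have turned, since all Bach2WT mice had 0 counts. Over all genes, 1 gene passed the threshold in edgeR, beside 80 with DESeq2 (57 higher, 23 lower), 73 without the filter (55 higher, 18 lower) and 0 with at least 10 counts in every library, with sex as covariate, with the replicate block or with counts divided by 2. With each mouse left out the count was 0 to 0. For Mmp7 the call was gained in DESeq2 (log2 fold change 7.04) and without the filter (7.83), so 1 member passed in each, and it was not tested with at least 10 counts in every library, with counts divided by 2 or without Bach2KO mouse 1. Of the other genes of the system 1 passed in DESeq2 (Adam8) and 1 without the filter (Spock2). The cause of these differences was not tested. The number of members whose groups did not overlap was 1 to 3 with each mouse left out, with 3 without Bach2KO mouse 1 (Mmp7, Mmp9 and Timp1) and 2 without Bach2WT mouse 1 (Mmp7 and Mmp14). Mmp7 was among them each time, since groups that lie apart stay apart when a mouse is left out. The share of all genes was not computed with a mouse left out, so these numbers have no background. The interaction of sex and genotype for Timp3 turned from -0.0125 to 0.0297 in DESeq2. The replicate numbers did not pair the mice (correlations of deviations 0.212, -0.034, -0.041 and -0.054). With the replicate block the log2 fold change of Mmp7 was 7.64 (edgeR adjusted p = 0.409), and 972 genes had an unadjusted p under 0.05, beside 957 without the block. Mmp3, Mmp7, Mmp12 and Timp1 had counts of 0 in some mice, for which 3 counts are the limit.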
